A study of Homo sapiens with 10 samples.

Results

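Cultures made by the mechanoreceptor protocol and by the proprioceptor protocol were pooled as a large-fibre side and compared with cultures made by the nociceptor protocol. Libraries were placed by the protocol in their titles, and all 10 of the 10 libraries of the series entered: 3 mechanoreceptor and 3 proprioceptor libraries, so 6 large-fibre libraries, against 4 nociceptor libraries. The question was which differences from the nociceptor protocol were common to both large-fibre protocols.

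All 3 groups came from 1 established line of human embryonic stem cells, RUES2, with a tdTomato reporter at AVIL, which encodes the actin regulator advillin and is active in peripheral sensory neurons. Every culture was taken at day 60 in vitro, and the groups differed in the differentiation protocol alone, as far as the labels say. Bulk RNA was sequenced; the series' design text names a droplet single-cell platform, but each sample here is 1 library of pooled RNA. The titles call the libraries biological replicates without saying whether they were separate differentiations, and the p-values here therefore reflect the scatter of these 10 libraries, perhaps technical, within 1 cell line. The labels do not say whether reporter-positive cells were sorted, and the composition of each protocol's medium was not used here.

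Primary somatosensory neurons fall broadly into small-diameter nociceptors, which report pain and temperature, and large-diameter, fast-conducting neurons, which report touch and body position. In development, RUNX1 directs a large share of nociceptors to a nonpeptidergic fate. Low-threshold mechanoreceptors use TrkB (NTRK2) or RET with MAF and SHOX2, and proprioceptors use TrkC (NTRK3) with RUNX3 and the calcium-binding protein parvalbumin (PVALB).

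The libraries held 27891186 to 44541262 estimated counts on named genes, and 12066 to 14160 genes reached 1 TPM (a level corrected for transcript length and library size). Of 30357 named genes, 15807 passed the filter on low counts and were tested. The libraries differed strongly within protocols. The mean log2 CPM (a count level per library size) of a fibroblast and mesenchyme gene list was 5.31 to 5.33 in nociceptor replicates 1 to 3, 4.67 in mechanoreceptor replicate 3 and 4.76 in proprioceptor replicate 2. It was 1.03 to 1.56 in the other 4 large-fibre libraries and 2.68 in nociceptor replicate 4. In RNA of whole cultures, fewer cells of a type and less RNA per cell cannot be told apart.

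**Figure D1:**
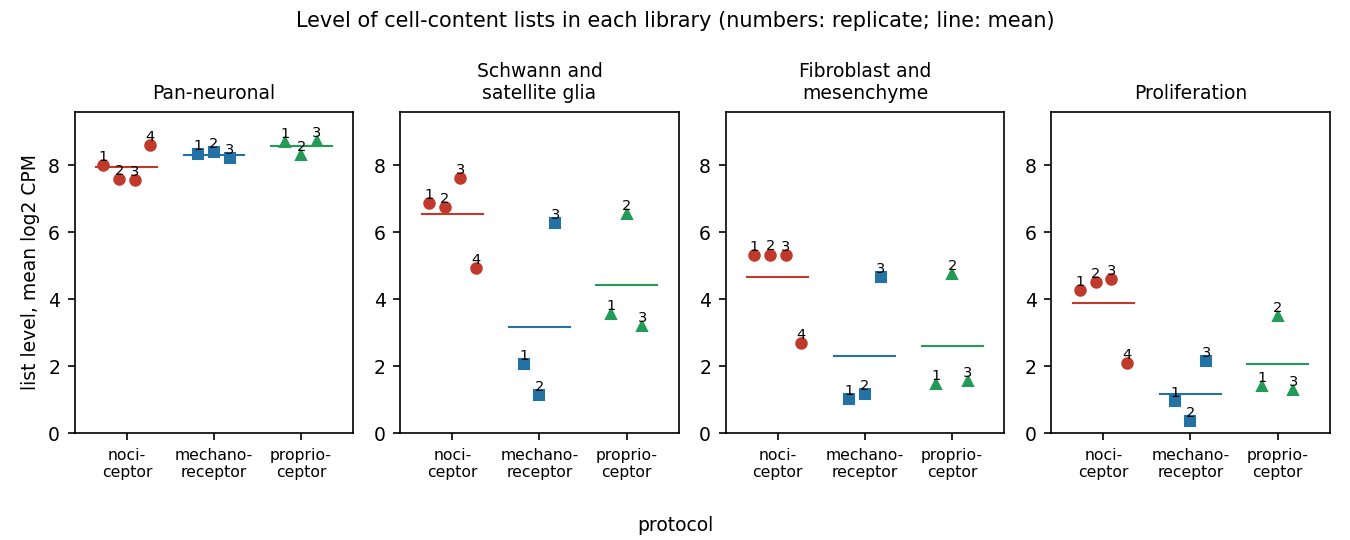
Mean log2 CPM of the pan-neuronal, glial, mesenchymal and proliferation lists (vertical axes) in each library, by protocol (horizontal axis); digits are replicate numbers and lines are protocol means. Nociceptor replicate 4 lay below its 3 companions in the mesenchymal list (2.68 against 5.31 to 5.33), and mechanoreceptor replicate 3 and proprioceptor replicate 2 lay above theirs (4.67 and 4.76 against 1.03 to 1.56).

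Values per library are given below in the order nociceptor replicates 1 to 4, mechanoreceptor replicates 1 to 3, proprioceptor replicates 1 to 3. Some markers of sensory neurons were looked at first. AVIL itself was low in every library: it was at 1.17, 1.61, 1.87 and 1.89 TPM in the nociceptor libraries, 2.21, 3.55 and 1.4 TPM under the mechanoreceptor protocol and 1.3, 3.51 and 2.97 TPM under the proprioceptor protocol. Its log2 difference, large-fibre minus nociceptor, was 0.81 ± 0.38 (standard error, SE), and the groups overlapped. ISL1, a homeodomain factor of sensory neurons, was at 104 to 315 TPM in the nociceptor libraries and 157 to 417 TPM in the large-fibre libraries. POU4F1 (BRN3A), its partner in sensory specification, ranged from 1.6 to 17.8 TPM and from 3.64 to 18 TPM. P2RX3, the ATP-gated channel of sensory neurons, was at 54.2 to 404 TPM against 67.1 to 486 TPM. Each of these markers was thus detected in all 10 libraries of both sides. A list of autonomic neuron genes lay above the sensory identity list in nociceptor replicates 2 and 3 (mean log2 CPM 4.56 and 3.04 against 2.79 and 2.75). It was also above it in mechanoreceptor replicate 3 (3.81 against 3.77) and below it in the other libraries. The share of sensory and autonomic neurons in each culture was not tested.

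No single gene passed the test of the pooled comparison. In edgeR's quasi-likelihood test, 0 of 15807 genes (percent called 0) had a Benjamini-Hochberg adjusted p under 0.05, and the smallest adjusted p was 0.34. At an unadjusted p under 0.05 there were 1969 genes (12.5%), of which 604 (3.82%) were higher and 1365 (8.64%) lower in the large-fibre libraries. DESeq2 called 254 of 17731 genes with an adjusted p, 41 higher (0.231%) and 213 lower (1.20%), and limma voom with library weights called 3251 (1432 higher and 1819 lower). Limma voom without weights and limma on log2(TPM + 1) called 0, with 2485 and 1932 genes at an unadjusted p under 0.05. The number of genes called therefore depended on the tool, and the genes below are described by level and by overlap.

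As a description that needs no model, 119 genes (0.753%) were higher in all 6 large-fibre libraries than in all 4 nociceptor libraries, and 111 (0.702%) were lower, 230 in total. Of the genes DESeq2 called, 61 were among these 230. With a log2 difference of at least 1 in each protocol as well, 35 genes were higher (0.221%) and 56 lower (0.354%). The total of 230 became 2268 without nociceptor replicate 4 (1000 higher and 1268 lower). It was 576 without proprioceptor replicate 1, 442 without nociceptor replicate 1, 415 without proprioceptor replicate 2 and 354 without nociceptor replicate 3. Fewer libraries are easier to separate, so a rise in this count when 1 is left out is partly built in. The counts were not set against what chance would give for each number of libraries. The 1969 genes at an unadjusted p under 0.05 became 3653 without nociceptor replicate 4, 1147 without nociceptor replicate 3, 1208 without nociceptor replicate 2 and 1255 without mechanoreceptor replicate 2.

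The 12 named genes higher in both large-fibre protocols were chosen for no overlap, a log2 difference of at least 1 in each protocol and a small p, as were the 12 lower ones. Counts of these 24 genes passing another test on the same libraries are therefore no independent support. DOK6 (RefSeq GRCh38.p14, chr18:69400888-69849087), an adaptor that binds the receptor tyrosine kinase RET, was at 35, 34, 30 and 51 TPM in the nociceptor libraries, 128, 103 and 61.5 TPM under the mechanoreceptor protocol and 63.6, 95.6 and 83.8 TPM under the proprioceptor protocol. The lowest large-fibre library lay above the highest nociceptor library. It differed by a log2 value of 1.12 ± 0.22 (SE; edgeR adjusted p = 0.34), with 1.13 in the mechanoreceptor and 1.12 in the proprioceptor protocol. RET itself, to which DOK6 binds, overlapped between the sides, at 28.5 to 98 TPM against 23.8 to 87.1 TPM (log2 difference 0.32).

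SNCB, encoding the presynaptic protein beta-synuclein, was the most abundant of the 12. It was at 46.4, 66.3, 61 and 105 TPM in the nociceptor libraries against 186, 171 and 137 TPM and 149, 138 and 141 TPM in the 2 large-fibre protocols. Both protocols lay wholly above the nociceptor libraries, and the log2 difference was 1.12 ± 0.30 (edgeR adjusted p = 0.34). DESeq2 called 11 of these 12 genes, and SNCB was the one it did not call.

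HTR2C (chrX:114584086-114910061), the serotonin 2C receptor, had the largest fitted log2 difference of the 12. Its levels were 0, 0.384, 0.323 and 0.0926 TPM in the nociceptor libraries, 6.11, 5.64 and 3.02 TPM under the mechanoreceptor protocol and 3.05, 3.6 and 0.644 TPM under the proprioceptor protocol. Proprioceptor replicate 3 was the lowest large-fibre library and still lay above every nociceptor library. The fitted log2 difference was 4.20 ± 1.01 (SE; edgeR adjusted p = 0.34), 4.45 in the mechanoreceptor and 3.88 in the proprioceptor protocol.

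SLC30A8, the zinc transporter ZnT8 of secretory granules, was at 0.139, 0.122, 0.149 and 0.498 TPM in the nociceptor libraries. It was at 1.63, 4 and 7.4 TPM in the mechanoreceptor and 2.24, 9.21 and 0.318 TPM under the proprioceptor protocol. On the TPM scale proprioceptor replicate 3 fell below nociceptor replicate 4, so that separation held on log2 CPM but not on TPM. On the log2 scale the difference was 3.82 ± 0.78 (edgeR adjusted p = 0.34).

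The other 8 higher genes had log2 differences of 1.13 to 3.42. LNX1, an E3 ubiquitin ligase that binds NUMB, was at 0.0203 to 0.305 TPM in the nociceptor libraries and 0.695 to 2.39 TPM in the large-fibre libraries (3.42 ± 0.82). TMC3, a transmembrane channel-like protein, was at 1.09 to 1.7 TPM against 2.34 to 4.82 TPM (1.38 ± 0.28). SMIM45, a small membrane protein, was at 0.324 to 0.573 TPM against 0.856 to 2.21 TPM (2.03 ± 0.37) and had the smallest unadjusted p of the 12 (0.000153). DGKK, a diacylglycerol kinase (1.96 ± 0.40), and OGDHL, a relative of the oxoglutarate dehydrogenase of the citric acid cycle (1.13), overlapped on TPM through proprioceptor replicate 1, as SLC30A8 did through replicate 3. Of the 12 genes, 9 did not overlap on either scale. CHRNA7, the alpha7 nicotinic receptor subunit, was at 5.66 to 18.5 TPM against 22.4 to 67.6 TPM (1.36 ± 0.37), but part of it is duplicated in CHRFAM7A, so its counts are uncertain. HLA-DPB2 is a pseudogene of a family with similar sequences and is uncertain for a like reason (2.70), and SIAH3 differed by 1.34.

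**Figure D2:**
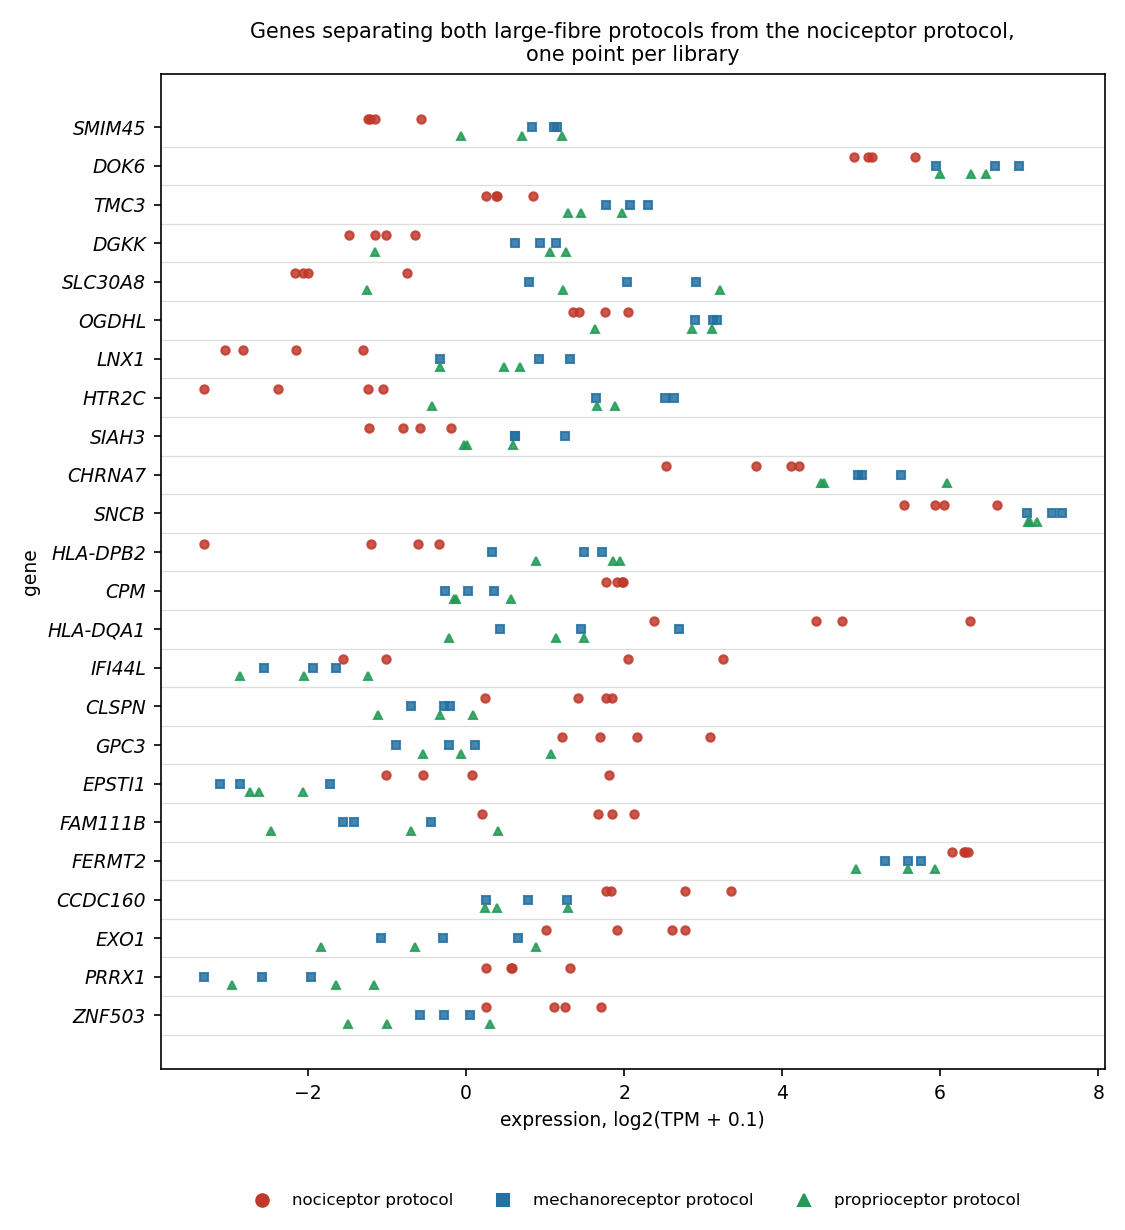
Expression as log2(TPM + 0.1) (horizontal axis) of the 12 higher and 12 lower named genes (vertical axis), 1 point per library, coloured by protocol. DOK6 and SNCB separated the 6 large-fibre from the 4 nociceptor libraries at high levels, while SLC30A8, DGKK and OGDHL each had 1 proprioceptor library within the nociceptor range on this scale.

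Among the 12 named genes lower in both large-fibre protocols, the carboxypeptidase M gene (symbol CPM, chr12:68842197-68963469), a membrane-bound peptidase, had the smallest unadjusted p (5.8e-05). Its levels were 3.32, 3.67, 3.86 and 3.84 TPM in the nociceptor libraries, 0.914, 0.731 and 1.18 TPM under the mechanoreceptor protocol and 0.796, 0.812 and 1.38 TPM under the proprioceptor protocol. The 4 nociceptor libraries lay within a narrow range, nociceptor replicate 4 included, and the highest large-fibre library lay well under it. The log2 difference was -2.13 ± 0.35 (SE; edgeR adjusted p = 0.34), -2.07 and -2.19 in the mechanoreceptor and proprioceptor protocols.

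FERMT2 (kindlin-2), which activates integrins, was the most abundant gene of the lower set. It was at 79, 70.9, 79.3 and 81.4 TPM in the nociceptor libraries against 48, 39.2 and 54 TPM and 30.4, 61 and 48.3 TPM in the large-fibre protocols. All large-fibre libraries lay below all nociceptor libraries, with a log2 difference of -1.05 ± 0.22 (edgeR adjusted p = 0.34). GPC3, a cell-surface heparan sulphate proteoglycan, was at 2.22 to 8.41 TPM against 0.44 to 2.01 TPM (-2.71 ± 0.54).

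PRRX1 (chr1:170662768-170739421), a transcription factor of limb and craniofacial mesenchyme, was at 1.4, 2.38, 1.38 and 1.09 TPM in the nociceptor libraries. It was at 0.0663, 0 and 0.157 TPM under the mechanoreceptor protocol and 0.0283, 0.345 and 0.219 TPM under the proprioceptor protocol. The sides did not overlap, and proprioceptor replicate 2, with a mesenchymal list level of 4.76, was the highest large-fibre library; the part of mesenchymal content was not tested. It differed by a log2 value of -3.97 ± 0.88 (edgeR adjusted p = 0.34). PRRX1 was the one gene of these 24 whose 2 large-fibre protocols differed at an unadjusted p under 0.05 (proprioceptor minus mechanoreceptor 2.64, edgeR adjusted p = 1).

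Genes of DNA replication and repair were a further part of the lower set. CLSPN (claspin, of the replication checkpoint) was at 1.08 to 3.51 TPM in the nociceptor libraries against 0.36 to 0.965 TPM in the large-fibre libraries (-1.71). EXO1, an exonuclease of DNA repair, was at 1.92 to 6.72 TPM against 0.181 to 1.74 TPM (-2.75). FAM111B, a serine protease, was at 1.05 to 4.25 TPM against 0.0812 to 1.22 TPM (-2.80). In each of these 3 genes nociceptor replicate 4 was the lowest nociceptor library. CCDC160 differed by -1.66 and the zinc-finger gene ZNF503 by -1.80.

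The interferon-induced genes IFI44L and EPSTI1 and the antigen-presentation gene HLA-DQA1 completed the lower set. IFI44L was at 9.45, 0.396, 4.05 and 0.241 TPM in the nociceptor libraries and 0.0381 to 0.322 TPM in the large-fibre libraries (-3.86 ± 0.76). EPSTI1 was at 0.394 to 3.39 TPM against 0.0151 to 0.202 TPM (-4.25 ± 0.86). For IFI44L nociceptor replicates 1 and 3 were high, replicate 2 lay just above the large-fibre range and replicate 4 lay under its highest value on TPM. HLA-DQA1 was at 21.4, 27, 83.2 and 5.1 TPM against 0.761 to 6.36 TPM, and its log2 difference on estimated counts, -1.83 ± 0.31, was far smaller than on TPM. Some HLA genes are similar in sequence, so reads may be split between them and this value is uncertain. The cause of the gap between the 2 scales was not tested. Of the 12 lower genes, 8 did not overlap on either scale; HLA-DQA1, IFI44L, FAM111B and ZNF503 overlapped on TPM. DESeq2 called 12 of the 12 lower genes.

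The stretches before the transcription start of 3 genes are shown because each holds a short motif tied to its textbook regulation, the cAMP response element in SST and an interferon-stimulated response element type of motif in IFI44L and EPSTI1. The sequences are the 250 bases before the RefSeq start (GRCh38.p14), 5′ to 3′ on the gene's strand: SST at chr3:187670395-187670644 (minus strand), IFI44L at chr1:78620198-78620447 (plus strand) and EPSTI1 at chr13:42992242-42992491 (minus strand). Capitals mark the motif, TGACGTCA for SST and for the other genes a pair of GAAA blocks with any 2 bases between them (GAAAAAGAAA in IFI44L, GAAACCGAAA in EPSTI1).
SST: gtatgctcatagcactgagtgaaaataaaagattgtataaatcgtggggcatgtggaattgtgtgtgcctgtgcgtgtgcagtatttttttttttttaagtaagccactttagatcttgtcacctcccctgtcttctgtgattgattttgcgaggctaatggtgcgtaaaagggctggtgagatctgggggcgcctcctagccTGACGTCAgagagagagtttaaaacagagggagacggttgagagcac
IFI44L: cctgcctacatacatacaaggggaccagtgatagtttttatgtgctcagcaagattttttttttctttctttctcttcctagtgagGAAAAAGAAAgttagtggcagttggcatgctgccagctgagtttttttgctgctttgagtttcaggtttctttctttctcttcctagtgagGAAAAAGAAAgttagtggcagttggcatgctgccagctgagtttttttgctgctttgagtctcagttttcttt
EPSTI1: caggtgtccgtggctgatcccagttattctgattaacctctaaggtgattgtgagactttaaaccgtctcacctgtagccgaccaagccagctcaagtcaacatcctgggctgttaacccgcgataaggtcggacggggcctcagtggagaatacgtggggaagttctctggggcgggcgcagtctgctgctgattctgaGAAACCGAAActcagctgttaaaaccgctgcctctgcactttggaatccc
The SST motif lay 47 to 40 bases before the start. The IFI44L motif occurred at 164 to 155 and at 73 to 64 bases before the start, and the EPSTI1 motif at 50 to 41 bases. Both strands were searched, and among 35116 promoters of the same length 578 (1.65%) held TGACGTCA and 1061 (3.02%) held the paired GAAA motif. A match is a description of the letters and was not measured as a site in these cells.

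**Figure D3:**
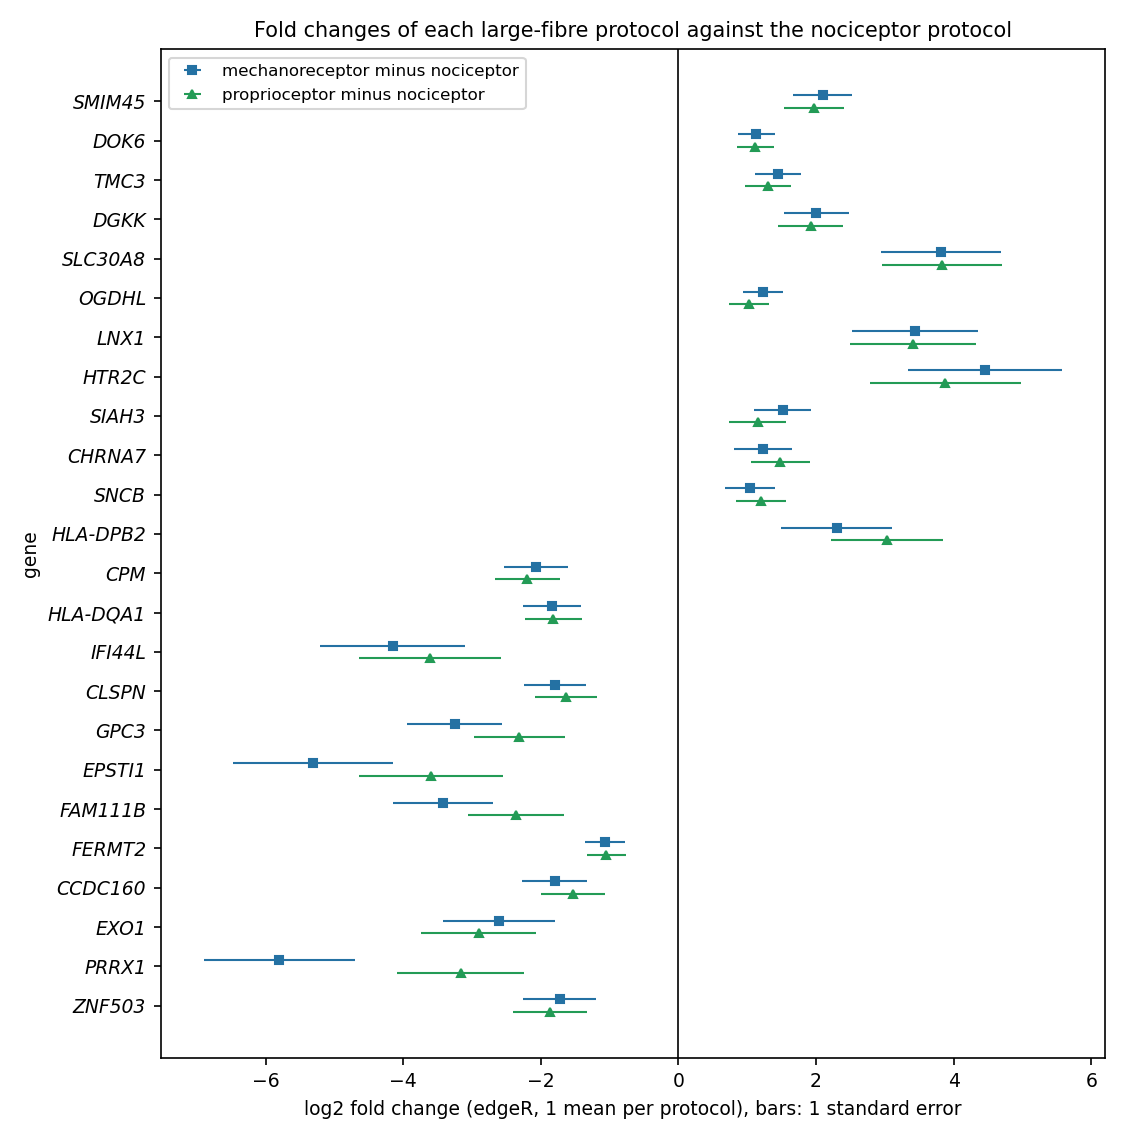
Log2 difference from the nociceptor libraries (horizontal axis, bars 1 SE) of the mechanoreceptor and the proprioceptor libraries for the 24 named genes (vertical axis). Both protocols share the same 4 nociceptor libraries; HTR2C differed by 4.45 and 3.88, and PRRX1 by -5.80 and -3.17.

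The 2 large-fibre protocols were then taken apart, with 1 mean for each protocol. Against the nociceptor libraries, edgeR called 0 genes in the mechanoreceptor protocol (1246, 7.88%, at an unadjusted p under 0.05; smallest adjusted p 0.624) and 0 in the proprioceptor protocol (936, 5.92%; smallest adjusted p 0.683). The unadjusted genes were 2.66% higher and 5.23% lower in the first and 2.59% higher and 3.33% lower in the second. Both contrasts use the same 4 nociceptor libraries, so their shared genes are not 2 independent observations. At an unadjusted p under 0.05 in both, 119 genes were higher (0.753%) and 309 lower (1.95%); 0 passed in both after adjustment. DESeq2 called 17 genes in both protocols in the same direction (0.104%), and limma voom with library weights called 0. Higher in both by DESeq2 were DGKK, HTR2C, LNX1, SLC30A8 and SMIM45. Lower in both were ADAMTSL1, B3GNT5, CALB1, CD36, the carboxypeptidase M gene, DPPA4, EXO1, HLA-DQA1, HLA-DRB1, HOXA9, IFI44L and PRRX1; of these ADAMTSL1, B3GNT5, CD36 and HLA-DRB1 were named after their values were seen. CD36, a fatty acid receptor, was at 9.17, 13.7, 10.8 and 1.81 TPM in the nociceptor libraries and 0.506 to 3.38 TPM in the large-fibre libraries, so that nociceptor replicate 4 lay inside the large-fibre range.

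Transcription factors of the large-fibre fates were not collectively higher. Of 12 tested, 6 were higher and 6 lower (median log2 difference 0.06), where 49.6% of all genes were higher and 50.4% lower (median -0.01), with 0 higher and 2 lower at an unadjusted p under 0.05. At that level 3.82% of all genes were higher and 8.64% lower. The list's median was 0.47 in the mechanoreceptor and -0.33 in the proprioceptor protocol, and the pooled median was 0.72 without nociceptor replicate 4. RUNX3, the proprioceptor factor, was at 0.507, 1.86, 0.919 and 2.06 TPM in the nociceptor libraries, 2.61, 5.71 and 5.72 TPM under the mechanoreceptor protocol and 1.17, 7.72 and 0.126 TPM under the proprioceptor protocol. The 3 mechanoreceptor libraries lay above every nociceptor library, while the proprioceptor libraries spanned the lowest and the highest value of all (log2 difference 1.26 ± 0.74, edgeR adjusted p = 0.481). SHOX2, of touch neurons, was at 3.47 to 45.6 TPM against 12.9 to 89 TPM (1.39, and 2.52 without nociceptor replicate 4). MAF, a factor of touch neurons, was among the members lower at an unadjusted p under 0.05, at 2.66 to 8.1 TPM against 1.51 to 7.35 TPM (-1.10 ± 0.38).

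Receptors and markers of large-fibre neurons were mixed, with 6 higher and 11 lower of 17 tested (median -0.59, and -0.34 without nociceptor replicate 1) and 0 higher and 3 lower at an unadjusted p under 0.05 (3.82% and 8.64% of all genes). PVALB was at 6.7, 2.26, 1.7 and 5.49 TPM in the nociceptor libraries, 9.58, 9.3 and 6.6 TPM under the mechanoreceptor protocol and 14.6, 11 and 1.76 TPM under the proprioceptor protocol. Its highest 4 libraries were large-fibre libraries, but proprioceptor replicate 3 lay among the lowest nociceptor libraries (1.23 ± 0.68, edgeR adjusted p = 0.453; 0.71 without proprioceptor replicate 1). NTRK2 was at 15.8 to 29.8 TPM against 7.24 to 73.6 TPM and NTRK3 at 3.92 to 10.7 TPM against 0.988 to 8.54 TPM, with log2 differences of 0.31 and -0.59. The sign for NTRK2 rested on proprioceptor replicate 3, without which it was -0.45.

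The 3 lower markers were CALB1, SPP1 and HAPLN4, and DESeq2 called all 3 lower, where it called 1.20% of all genes lower. CALB1, the calcium-binding protein calbindin, was at 12.4, 35.9, 11.8 and 1.8 TPM in the nociceptor libraries and 0.719 to 1.59 TPM in the large-fibre libraries (-4.52 ± 0.81). SPP1 (osteopontin), a secreted matrix protein, was at 94.8, 262, 118 and 5.23 TPM against 3.16 to 25 TPM (-3.60 ± 0.84). HAPLN4, a link protein of perineuronal matrix, was at 0.706 to 5.11 TPM against 0.169 to 1.76 TPM (-2.18 ± 0.67). In all 3, nociceptor replicate 4 was the lowest of its group.

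Neurofilament and large-axon genes were slightly higher, 17 of 18 (median 0.41), with 3 higher and 0 lower at an unadjusted p under 0.05 (3.82% and 8.64% of all genes). NEFH, the heavy neurofilament chain of thick axons, was at 34.2, 16.6, 13 and 22.7 TPM in the nociceptor libraries and 32.8, 50.9 and 45.3 TPM and 19.1, 38.1 and 53.5 TPM in the large-fibre protocols. The groups overlapped (0.82 ± 0.29, edgeR adjusted p = 0.346). SCN4B, a sodium channel beta subunit, was at 1.2 to 2.97 TPM against 1.29 to 8.74 TPM (1.34 ± 0.44), and KCNAB2, a potassium channel beta subunit, at 3.53 to 9.63 TPM against 3.02 to 19.7 TPM (1.23 ± 0.43). Nociceptor replicate 4 was the highest nociceptor library in SCN4B and KCNAB2. The list's median was 1.07 without that library, 0.24 without nociceptor replicate 2, and 0.18 after adjustment for the mesenchyme level.

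Nociceptor factors were not lower as a group: 6 of 7 transcription factors were higher and 1 lower (median 0.77, and 0.40 without proprioceptor replicate 3). The lower one was RUNX1 (chr21:34787801-35049302), at 11.8, 4.81, 5.92 and 3.58 TPM in the nociceptor libraries, 2.01, 1.86 and 4.04 TPM under the mechanoreceptor protocol and 1.83, 2.22 and 1.69 TPM under the proprioceptor protocol. On log2 CPM all 6 large-fibre libraries were below all 4 nociceptor libraries, while on TPM mechanoreceptor replicate 3 passed nociceptor replicate 4. The fitted log2 difference was -1.59 ± 0.37 (edgeR adjusted p = 0.34; DESeq2 called it), -1.45 in the mechanoreceptor and -1.74 in the proprioceptor protocol.

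PRDM12, the chromatin regulator required for nociceptor formation, went the other way. It was at 0.118, 0.081, 0.0609 and 0.478 TPM in the nociceptor libraries, 1.25, 0.967 and 0.328 TPM under the mechanoreceptor protocol and 0.62, 0.634 and 0.756 TPM under the proprioceptor protocol. Mechanoreceptor replicate 3 alone of the large-fibre libraries lay below nociceptor replicate 4 (2.04 ± 0.67, edgeR adjusted p = 0.34). DRGX, a homeodomain factor of nociceptors, differed by 1.18, at 8.85 to 35.9 TPM against 12 to 97 TPM.

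Of 22 nociceptor receptors, channels and peptides tested, 14 were higher and 8 lower (median 0.34, and 0.76 without nociceptor replicate 4), with 2 higher and 1 lower at an unadjusted p under 0.05 (3.82% and 8.64% of all genes). SST, the inhibitory neuropeptide somatostatin, stood out by level. It was at 75.2, 630, 457 and 597 TPM in the nociceptor libraries, 2310, 5340 and 1510 TPM under the mechanoreceptor protocol and 13400, 1390 and 1880 TPM under the proprioceptor protocol. All 6 large-fibre libraries lay above all 4 nociceptor libraries. On the log2 scale the difference was 3.65 ± 1.06 (SE; edgeR adjusted p = 0.34; DESeq2 called it), 2.56 in the mechanoreceptor and 4.26 in the proprioceptor protocol, and 1.85 once the mesenchyme level was a covariate (edgeR adjusted p = 1). Without proprioceptor replicate 1, the library at 13400 TPM, the pooled difference was 2.27.

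Other nociceptor genes overlapped, as did PIEZO2, which is not a member of the nociceptor list. SCN9A, a sodium channel gene of pain fibres, was at 64.2 to 258 TPM against 132 to 187 TPM (0.26), and PIEZO2, the touch channel, at 21.1 to 341 TPM against 45.3 to 172 TPM (0.27). Without nociceptor replicate 4 these differences were 0.84 and 1.92, and without nociceptor replicate 3 they were 0.10 and 0.01. CALCA, which encodes calcitonin gene-related peptide, did not go one way in the 2 protocols. It was at 0.0562 to 0.507 TPM in the nociceptor libraries, 1.95, 2.04 and 0.779 TPM under the mechanoreceptor protocol and 0.09, 0.138 and 0.229 TPM under the proprioceptor protocol. Its log2 difference from the nociceptor libraries was 1.90 in the mechanoreceptor and -1.35 in the proprioceptor protocol, and proprioceptor minus mechanoreceptor was -3.24 (edgeR adjusted p = 1).

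Peptide receptors beside SST, with SST itself included in the list, were higher in 9 and lower in 4 of 13 tested (median 0.62, and 0.31 without proprioceptor replicate 1). ADCYAP1R1, the receptor of the neuropeptide PACAP, was at 0.63 to 2.65 TPM against 1.19 to 6.71 TPM (1.22 ± 0.45), and the groups overlapped through proprioceptor replicate 1.

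General neuronal genes were slightly higher. Of 15 sensory identity genes, 14 were higher and 1 lower (median 0.63), 3 of them higher at an unadjusted p under 0.05, and of 16 pan-neuronal genes 15 were higher and 1 lower (median 0.48), 0 at that level. Of all genes, 3.82% were higher at that level. Higher in both protocols were 11 of the 15 sensory identity and 14 of the 16 pan-neuronal genes, and 5619 of all 15807 genes. The mean log2 CPM of the sensory identity list was 2.75 to 3.16 in nociceptor replicates 1 to 3, 3.88 in replicate 4 and 3.77 to 4.15 in the large-fibre libraries. STMN2, a microtubule regulator of neurons, was at 1610 to 4240 TPM against 2990 to 6270 TPM (0.73). With the mesenchyme level as a covariate the medians were 0.32 and 0.13, and without nociceptor replicate 4 they were 1.16 and 0.93. The share of the pan-neuronal difference that follows from non-neuronal RNA was not tested.

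Ion channel lists were shifted by a similar amount. Voltage-gated sodium channel genes were higher in 9 of 11 (median 0.35) and voltage-gated potassium and HCN channel genes in 22 of 27 (median 0.43). KCNA4, the channel subunit Kv1.4, was at 0.576 to 2.93 TPM against 0.676 to 4.92 TPM (1.23), and KCNA6, the subunit Kv1.6, at 2.69 to 8.09 TPM against 1.22 to 20.1 TPM (1.12). In KCNA6, 5 of 6 large-fibre libraries lay above every nociceptor library and proprioceptor replicate 1 lay below them all. Mechanosensory and acid-sensing channel genes were higher in 10 of 15 (median 0.27), and 0 had an unadjusted p under 0.05 (12.5% of all genes). Without nociceptor replicate 4 the 3 medians were 0.94, 0.78 and 0.73, and without nociceptor replicate 3 the last of them was 0.03.

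**Figure D4:**
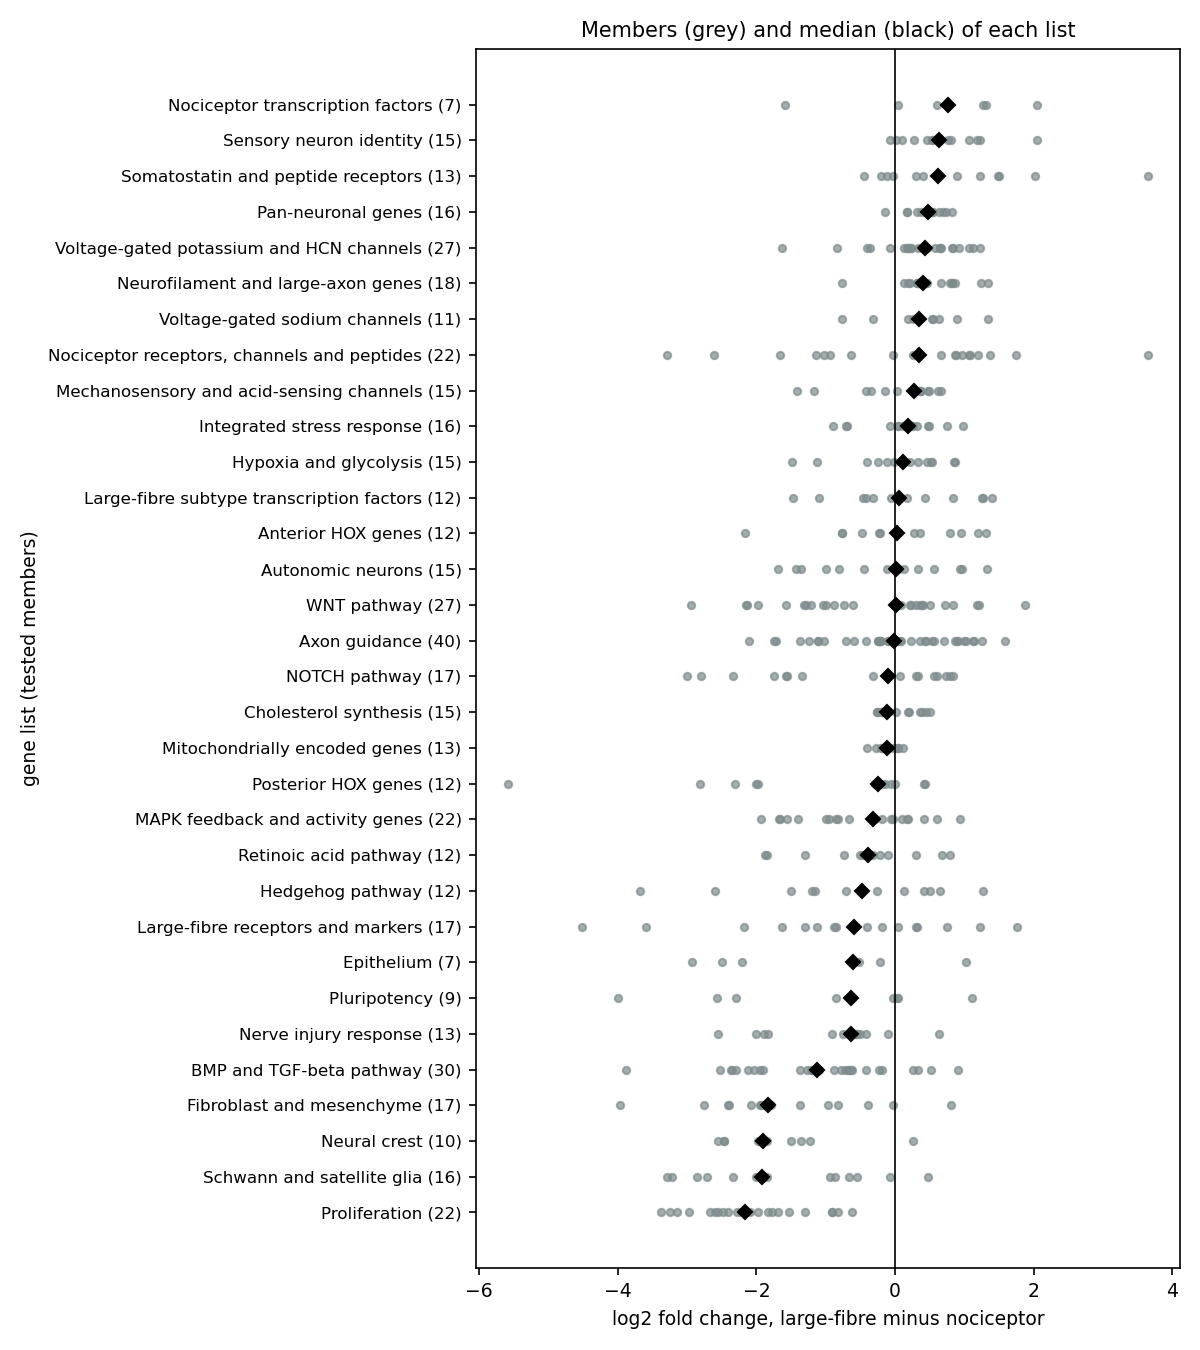
Log2 difference, large-fibre minus nociceptor (horizontal axis), of each tested member (grey) and the median (black) of each gene list with more than 6 tested members (vertical axis, member number in brackets). Proliferation, glial, neural crest and mesenchymal lists had medians of -2.16, -1.92, -1.90 and -1.84, and nociceptor transcription factors had the highest median, 0.77.

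HOX genes, which encode position along the body axis, were lower in part. Of 24 posterior HOX genes (paralogue groups 6 and above), 12 passed the filter, 2 higher and 10 lower (median -0.24, and -0.48 without proprioceptor replicate 3), and 5 were lower at an unadjusted p under 0.05. At that level 8.64% of all genes were lower. In both protocols 6 of the 12 were lower and 1 higher, where 6439 of all 15807 genes were lower and 5619 higher in both. The list's median was -0.77 in the mechanoreceptor and -0.15 in the proprioceptor protocol. HOXA9 (chr7:27162438-27165537) had the smallest unadjusted p of all genes (2.32e-05), though from few counts: 26, 21, 11 and 51 counts in the nociceptor libraries, 0, 2 and 0 under the mechanoreceptor protocol and 0, 1 and 0 under the proprioceptor protocol. The large-fibre level per library size was 0.0176 of the nociceptor level (95% exact interval 0.00357 to 0.0528, counting error only). Its fitted log2 difference was -5.58 ± 0.83 (edgeR adjusted p = 0.34).

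HOXC9 (chr12:54000161-54003337), a gene of thoracic level, was at 4.47, 6.65, 7.07 and 8.73 TPM in the nociceptor libraries, 0.0629, 0.0915 and 0.784 TPM under the mechanoreceptor protocol and 0.576, 2.51 and 1.5 TPM under the proprioceptor protocol. All 6 large-fibre libraries lay below all nociceptor libraries, and the mechanoreceptor libraries were the lowest on average. The log2 difference was -2.82 ± 0.78 (edgeR adjusted p = 0.34), -4.59 in the mechanoreceptor and -2.04 in the proprioceptor protocol, and the protocols differed from each other by 2.56 (edgeR adjusted p = 1). Nociceptor replicate 4 had the highest HOXC9 level of all.

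HOXC6 was at 2.59 to 3.7 TPM against 0.099 to 1.69 TPM without overlap (-1.97 ± 0.61). HOXC8 (-2.30 ± 0.61) was at 0.927 to 5.66 TPM against 0.238 to 1.14 TPM, and HOXA7 (-2.0 ± 0.55) at 2.12 to 6.29 TPM against 0.179 to 2.8 TPM. HOXC5, of the anterior list, differed by -2.16. Of 15 posterior HOX genes with an adjusted p, DESeq2 called HOXA7, HOXA9, HOXC8 and HOXC9 lower (1.20% of all genes). Members of the B cluster, picked after their values were seen, overlapped: HOXB7 was at 33.5 to 56.9 TPM against 26.1 to 53 TPM and HOXB9 at 10.7 to 36.5 TPM against 8.85 to 65.2 TPM. Their log2 differences were -0.14 and 0.42, and both signs changed with the mesenchyme level as a covariate (0.09 and -0.62). With that covariate the differences of HOXA9, HOXC8 and HOXC9 were -6.51, -3.24 and -2.61. Anterior HOX genes were higher in 6 and lower in 6 of 12 (median 0.03).

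**Figure D5:**
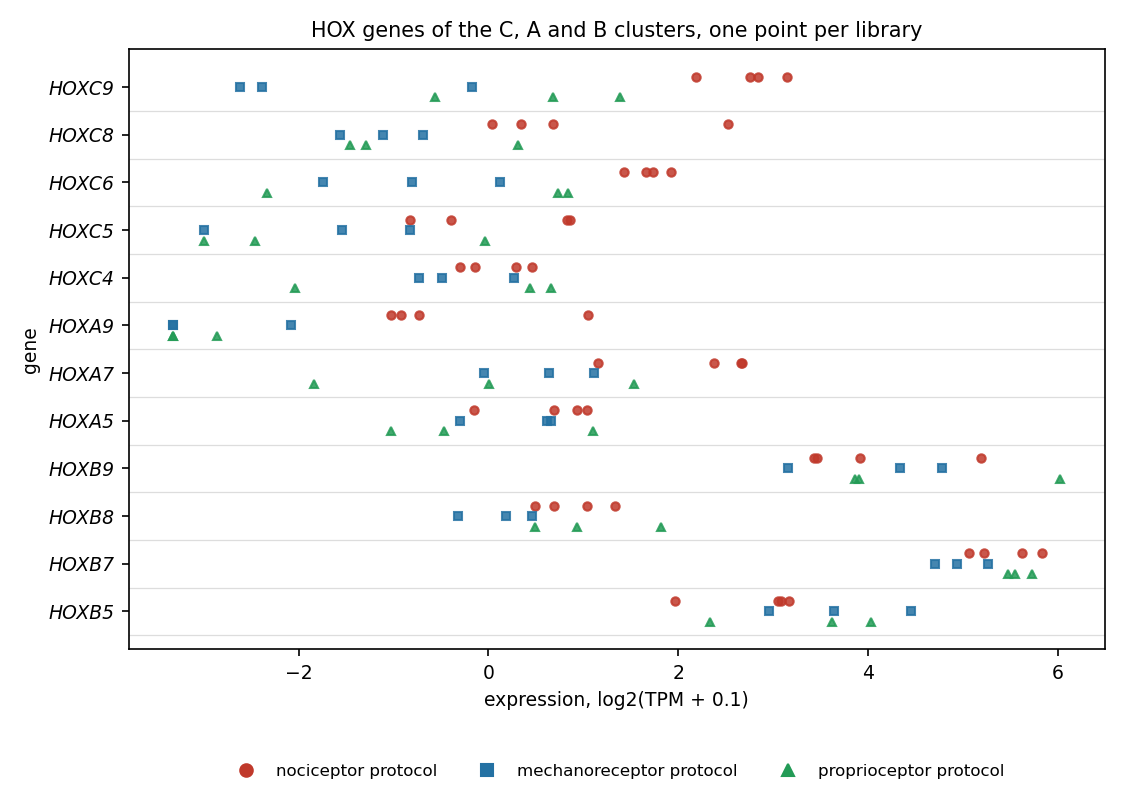
Expression as log2(TPM + 0.1) (horizontal axis) of HOX genes of the C, A and B clusters (vertical axis), 1 point per library, coloured by protocol. HOXC9 lay at 4.47 to 8.73 TPM in the nociceptor and 0.0629 to 2.51 TPM in the large-fibre libraries, while HOXB7 and HOXB9 overlapped.

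Lists of dividing and non-neuronal cells had low medians. All 22 proliferation genes were lower (median -2.16), 19 of them at an unadjusted p under 0.05 where 8.64% of all genes were lower at that level. DESeq2 called 11 of the 22 lower, where it called 1.20% of all genes lower. PCNA, the replication clamp, was at 95.2, 93.5, 95.9 and 28.1 TPM in the nociceptor libraries, 27.6, 17.1 and 35.6 TPM under the mechanoreceptor protocol and 22.1, 45.8 and 17 TPM under the proprioceptor protocol. Nociceptor replicate 4 lay within the large-fibre range, and the other 3 nociceptor libraries lay above all others (-1.53 ± 0.39, edgeR adjusted p = 0.34). TPX2 (-1.30), BUB1 (-1.83), CENPF (-2.10) and TOP2A (-3.15), of spindle, checkpoint, kinetochore and DNA topology, had nociceptor replicate 4 as the lowest nociceptor library too. With the mesenchyme level as a covariate the list's median was -0.80, and 1 of the 22 was lower at an unadjusted p under 0.05 (1.11% of all genes).

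Schwann and satellite glial genes were lower in 15 of 16 (median -1.92), but 2 were lower at an unadjusted p under 0.05 (8.64% of all genes). SOX10, the glial and neural crest factor, was at 34.2, 35.9, 48.2 and 7.91 TPM in the nociceptor libraries, 0.732, 0.0136 and 17.7 TPM under the mechanoreceptor protocol and 1.33, 24.6 and 0.898 TPM under the proprioceptor protocol. Mechanoreceptor replicate 3 and proprioceptor replicate 2 were thus above nociceptor replicate 4 (-2.01, edgeR adjusted p = 0.495). FABP7, a lipid-binding protein of glial precursors, did not overlap, at 28, 24.5, 13.7 and 11 TPM in the nociceptor libraries against 0.447 to 8.44 TPM (-2.71 ± 0.71).

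Neural crest genes were lower in 9 of 10 (median -1.90), 6 at an unadjusted p under 0.05 (8.64% of all genes). PAX3, a crest and dorsal neural tube factor, was at 0.666 to 2.17 TPM against 0.169 to 0.81 TPM (-1.98 ± 0.51), without overlap on log2 CPM but with overlap on TPM. SNAI2 (-2.47), a factor of crest migration, ETS1 (-2.55) and MSX2 (-2.46) overlapped. Mesenchymal genes were lower in 16 of 17 (median -1.84), 4 at that level. COL1A1, fibrillar collagen, ranged from 17 to 1980 TPM in the nociceptor libraries and from 1.77 to 536 TPM in the large-fibre libraries (-2.41, edgeR adjusted p = 0.517). With the mesenchyme level as a covariate the glial and neural crest medians were -0.42 and -0.54. How far the amount of non-neuronal cells moved these lists was not tested.

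The 24 named genes were fitted with the same covariate. All 12 higher and all 12 lower genes had an unadjusted p under 0.05 (1.82% of all genes were higher and 1.11% lower at that level); the genes were chosen on these libraries, so nothing is read from that count. The median absolute log2 difference was 1.69 with and 1.67 without the covariate for the higher genes, and 1.66 and 2.42 for the lower genes. The mesenchyme level differs between the sides and was measured on the same libraries. PRRX1 is itself a member of the mesenchyme list, so its adjusted value is partly built in.

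Signalling lists were led by BMP and TGF-beta genes, with 26 lower and 4 higher of 30 (median -1.12, and -0.64 without nociceptor replicate 2), 8 lower at an unadjusted p under 0.05 (8.64% of all genes). BMP4, a secreted ligand, was at 0.533 to 3.25 TPM against 0.0957 to 1.43 TPM (-2.52), GDF10, a second ligand, at 0.364 to 2.53 TPM against 0.117 to 0.793 TPM (-1.91), and ID3, a transcriptional target, at 1.53 to 83.6 TPM against 0 to 10.2 TPM (-3.88). Each overlapped. The list's level was 3.34 to 3.87 mean log2 CPM in nociceptor replicates 1 to 3 and 3.13 and 3.14 in mechanoreceptor replicate 3 and proprioceptor replicate 2, against 0.66 to 1.78 in the other 5 libraries, and its median was -0.17 with the mesenchyme covariate.

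NOTCH genes were lower in 9 of 17 (median -0.10), WNT genes in 13 of 27 (median 0.01), retinoic acid genes in 9 of 12 (median -0.39) and Hedgehog genes in 7 of 12 (median -0.48). The retinoic acid median was -0.10 without nociceptor replicate 3, and the Hedgehog median -0.92 without nociceptor replicate 1 and 0.40 after adjustment for the mesenchyme level. Without 1 library the NOTCH median became 0.13 (nociceptor replicate 3) and the WNT median -0.37 (proprioceptor replicate 1). SPRY1, a feedback inhibitor of MAPK signalling, was at 12.4 to 35 TPM against 5.61 to 13.9 TPM (-1.40 ± 0.46) and did not overlap on log2 CPM. In the metabolic lists ALDOC, the neural aldolase of glycolysis, was at 45.2, 40, 40.2 and 41.4 TPM in the nociceptor libraries and 57.2 to 91.6 TPM in the large-fibre libraries without overlap (0.85 ± 0.31). ADM, the vasodilator peptide adrenomedullin, was at 2.26 to 4.65 TPM against 0.419 to 2.39 TPM (-1.49 ± 0.47) and did not overlap on log2 CPM. Hypoxia and glycolysis genes were otherwise mixed, 9 higher and 6 lower of 15 (median 0.11). Axon guidance genes were higher in 19 and lower in 21 of 40 (median -0.02).

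The 2 large-fibre protocols were compared with each other to see how far the pooled side was uniform. In edgeR 0 genes were called, 214 (1.35%) had an unadjusted p under 0.05 and the smallest adjusted p was 1; DESeq2 called 1 gene. With 3 libraries in each protocol and a common biological coefficient of variation of 0.533, this does not show that the protocols gave the same cells.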

How the data were processed

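Per the labels' protocols, Trizol RNA of 10 cultures went through Bioanalyzer checks, Clontech Ultra Low v4 cDNA synthesis and NexteraXT library preparation; this chemistry does not mark strand, so overlapping antisense genes cannot be separated. The authors deposited gene-level estimated counts and TPM from kallisto 0.50.1 on GRCh38.p14, per the submitters' processing notes. How transcripts were summed to gene symbols is not given in the sources used here, and the deposited transcript-level files were not used. A row without a gene name held 0.733% to 1.66% of the estimated counts and 2.81% to 8.8% of the TPM and was left out.

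Libraries were grouped by the protocol in their titles. Estimated counts were rounded to whole numbers, filtered with filterByExpr, scaled by TMM and tested with edgeR 4.0.16 (R 4.3.3; quasi-likelihood, 2-sided, Benjamini-Hochberg threshold 0.05), with 1 mean for the 6 large-fibre and 1 for the 4 nociceptor libraries; a model with 1 mean per protocol gave the values of each protocol. Overlap was judged on TMM-scaled log2 CPM with a prior count of 2. Gene coordinates and promoters came from RefSeq (GRCh38.p14), in which 15728 of the tested symbols were found.

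Named genes had a mean of at least 1 TPM on the higher side, a log2 difference of at least 1 in the same direction in each protocol and no overlap (25 higher and 40 lower candidates), up to 12 per direction by the smallest unadjusted p. Added to them were non-overlapping members and up to 4 examples of each of 37 gene lists, and a fixed set of subtype markers. The members and lists were chosen with earlier results of these data known. Alternatives were DESeq2 1.42.0, limma 3.58.1 (voom with and without library weights, log2(TPM + 1) and log2(TPM + 0.1)), RLE size factors, other filters, a replicate block, the mesenchymal or pan-neuronal level as a covariate, and leaving out each library. The edgeR script was run on simulated data with 15602 genes for this comparison. Of 100 genes changed by 2 on the log2 scale 64% were called, and of 100 changed by 4, 95%. False calls numbered 7. These shares describe the script on that input, and the share of true changes found in the 10 real libraries was not tested. In the real libraries edgeR called 0 genes, HTR2C (log2 difference 4.20) and EPSTI1 (-4.25) included. No 2 libraries were duplicates: the lowest chi-square per degree of freedom between libraries of a group was 124.1. Results of some genes the rule names are not reported here.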

Additional observations from a re-analysis of the deposited data

Results flagged for a closer look

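Each of 111 named genes was checked in the 4 nociceptor and the 6 large-fibre libraries for 1 library that stood apart, measured on log2 CPM as the gap between the highest or lowest library and its neighbour, as a share of the group's whole range. This picked out 18 of 222 gene and side pairs. The cut-off is one that about 1 in 20 independent samples of normal values would pass. The genes vary together across libraries and many were chosen on them, so the 18 cannot be judged against that rate. Nociceptor replicate 4 was the library set apart in 8 of them. It was the lowest for PCNA (gap 0.956 of the range), CENPF (0.915), DPPA4 (0.905), HLA-DRA (0.863), OSMR (0.858) and TPX2 (0.836), and the highest for SCN4B (0.843) and KCNAB2 (0.839). That library also had a mesenchymal list level of 2.68 against 5.31 to 5.33 in the other 3; the part of this in each gene was not tested.

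In the other nociceptor libraries, replicate 2 was the highest for SMIM45 (0.871), replicate 3 the highest for GLI3, a Hedgehog transcription factor (0.878, at 13.6 TPM), and replicate 1 the lowest for SST (0.8294, at 75.2 TPM). Among the large-fibre libraries, proprioceptor replicate 3 was the highest for NTRK2 (0.806, at 73.6 TPM) and the lowest for HTR2C (0.702), ADM (0.634) and RUNX3 (0.632, at 0.126 TPM). Proprioceptor replicate 1 was the lowest for KCNA6 (0.73), proprioceptor replicate 2 the highest for HAPLN4 (0.663) and mechanoreceptor replicate 1 the lowest for GPC3 (0.626). Of the 111 genes, edgeR called 0 between the 2 large-fibre protocols.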

How the results depend on the processing

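The pooled count of 0 genes in edgeR was also 0 with RLE size factors, no filter, a filter of 50 counts in 3 libraries, an averaged contrast, either covariate and without each library. DESeq2 called 254 and limma voom with library weights 3251, and the cause was not tested. In the weighted fit nociceptor replicates 1 to 4 had weights of 0.366, 3.83, 1.4 and 0.422. Proprioceptor replicate 1 had the lowest weight of all, 0.321. DESeq2 called 17 genes in both protocols (edgeR 0) and 1 between them (edgeR 0). The count of 230 non-overlapping genes was 256 to 2268 when 1 library was left out, where fewer libraries are easier to separate. No pairing by replicate number was seen: 4 of 9 same-number pairs had a correlation of deviations above 0.1 (range -0.65 to 0.5), and 1 of 9 libraries correlated best with its own number. The highest correlation, 0.8, joined mechanoreceptor replicate 3 and proprioceptor replicate 2. The deviations thus hold other differences between libraries, and the check cannot exclude that same-number cultures were run together. With the replicate number as a block, 0 genes were called in the pooled comparison, 0 in both protocols and 0 between the protocols, and 3465 had an unadjusted p under 0.05. Only the nociceptor protocol has a replicate 4, so the block term of that number takes up this library whole. The block fit is thus also a fit without nociceptor replicate 4, for which 3653 genes had an unadjusted p under 0.05. Signs of the pooled log2 difference turned as follows. With the mesenchyme level as a covariate: NTRK2 -0.22, PIEZO2 -0.35, SCN9A -0.20, POU4F1 -0.80, ISL1 -0.24, COL1A1 0.17, HOXB7 0.09 and HOXB9 -0.62. With the pan-neuronal level as a covariate: NTRK2 -0.64, RET -0.07, PIEZO2 -0.55, SCN9A -0.35, POU4F1 -0.67, ISL1 -0.24, STMN2 -0.11, COL1A1 1.21, CD74 0.45, HLA-DRA 0.50, HOXB7 0.01 and HOXB9 -0.61. STMN2 is a member of the pan-neuronal list and COL1A1 of the mesenchyme list. Each of these levels thus contains the gene it adjusts, and the change in that gene is partly built in. NTRK2 was -0.30 and -0.33 in limma on log2(TPM + 1) and log2(TPM + 0.1). When each library was left out in turn, NTRK2 ranged from -0.45 to 0.61, POU4F1 from -0.01 to 1.27 and HOXB9 from -0.07 to 1.03 (each lowest without proprioceptor replicate 3 and highest without nociceptor replicate 4), and HOXB7 from -0.37 to 0.07 (highest without nociceptor replicate 3). The depth limits genes such as HOXA9, with 3 counts in 6 large-fibre libraries.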

Other observations

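Gene groups chosen after the values were seen are given here as description, with no test. Of 42 interferon-induced genes, 39 were lower and 3 higher in the large-fibre libraries (median log2 difference -1.85). Once the fit included the mesenchyme level, this median shrank to -0.46, with 38 genes lower and 4 higher. IFITM1, an antiviral membrane protein, was at 151, 28.5, 282 and 5.57 TPM in nociceptor replicates 1 to 4 and 1.65 to 26.8 TPM in the large-fibre libraries (-3.70). ISG15, a ubiquitin-like modifier, was at 80.8, 71.7, 391 and 9.13 TPM against 9.28 to 55 TPM (-2.62). IFIT1 (-2.36), OASL (-2.22) and DDX60 (-2.44), an RNA-binding effector, a synthetase-like protein and a helicase of the antiviral response, were each lowest among the nociceptor libraries in replicate 4. The mean log2 CPM of the list was 3.19 to 4.41 in nociceptor replicates 1 to 3, 1.87 in replicate 4 and 1.02 to 2.87 in the large-fibre libraries, the highest of these in proprioceptor replicate 2 and mechanoreceptor replicate 3 (2.87 and 2.68).

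All 12 genes of MHC class II and its invariant chain were lower (median -2.87). CD74, the invariant chain, was at 177, 259, 694 and 0.484 TPM in the nociceptor libraries, 0.115, 0.214 and 84.9 TPM in the mechanoreceptor libraries and 0.416, 20.3 and 0.579 TPM in the proprioceptor libraries. HLA-DRA, the class II alpha chain, was at 129, 200, 411 and 0 TPM, then 0.302, 0.0664 and 32 TPM, then 0.255, 9.46 and 0 TPM. Both genes were thus high in the same 5 libraries that were high in mesenchymal genes, and the list's median was -1.21 with the mesenchyme level as a covariate. Of 13 class I presentation genes 11 were lower (median -1.08, and 0.19 with the covariate), and of 33 DNA replication genes 31 were lower (median -1.09, and -0.61 with the covariate). The part of cell makeup in these groups was not tested.

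Among the remaining lists, 6 of 9 pluripotency genes were lower (median -0.63). DPPA4, a chromatin factor of pluripotent cells, was at 5.01, 3.96, 5.21 and 0.7 TPM in the nociceptor libraries against 0.0392 to 0.674 TPM (-4.0), and L1TD1, an RNA-binding protein of such cells, at 0.722 to 3.2 TPM against 0.0865 to 1.45 TPM (-2.57). Nerve injury response genes were lower in 12 of 13 (median -0.63). Without nociceptor replicate 3 the pluripotency and nerve injury medians were -0.26 and -0.23. Among the nerve injury genes FLRT3, an adhesion protein, was at 8.79 to 93.5 TPM against 4.74 to 34.5 TPM (-1.88). Autonomic neuron genes were higher in 8 and lower in 7 of 15, and their level varied within protocols from -0.90 to 4.56 mean log2 CPM in the nociceptor libraries and from -0.58 to 3.81 in the large-fibre libraries.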
